A study of Mus musculus with 30 samples.

Results

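The circadian clock of a mammalian cell is a feedback loop in which the activators BMAL1 (gene Arntl) and CLOCK switch on their own repressors. The genes described here are 10 that these activators drive: the transcription factors Dbp, Tef and Hlf, the nuclear receptors Nr1d1 and Nr1d2 (REV-ERB alpha and beta), the period genes Per1, Per2 and Per3, the repressor Ciart (CHRONO) and the ubiquitin-specific protease Usp2. They were chosen by name and matched to the array through the platform annotation. All 10 were present among the 18193 genes with a probe set, and all 10 were among the 12998 genes that passed the filter on low values (at least 5 arrays in which the probe set exceeded that array's median).

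Expression was measured in total salivary gland of female NOD.H-2h4 mice, which are prone to autoimmunity, on Affymetrix whole-genome mouse arrays. Every mouse had received 1 intraperitoneal injection of 20 mg/kg at 4 weeks of age, either of an antibody against CD40L, the T cell ligand of CD40, or of a human IgG1 isotype control antibody. Glands were collected at week 8, week 16 or week 24, which gave 6 groups of 5 arrays, labelled as biological replicates. No untreated mice and no arrays from before the injection were analysed here, so the control antibody is the reference throughout.

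Most cells of the body carry this clock, and in tissues such as liver and salivary gland the RNA of its output genes rises and falls strongly over each day. Dbp, Nr1d1 and the period genes are then high in one part of the day, while Arntl, Npas2 and Nfil3 are high in the opposite part. The labels give the week of collection and no time of day. The hour of collection and the group can therefore not be told apart in any comparison below, and its part in the differences was not tested.

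Values are log2 intensities, so a difference of 1 is a doubling, and they are compared between arrays for the same probe set and never between genes. Over all genes tested, the median SE of treatment against control was 0.139. The gland markers were present: submandibular granular duct, acinar and parotid markers averaged at least 11.735 in every group. The granular duct mean rests on 2 of 5 listed genes, and the parotid list includes Prol1, which is also an acinar marker. Parotid amylase (Amy1) ranged from 6.575 to 13.695 over the 30 arrays, so the amount of parotid tissue differed between samples. The 3′ minus 5′ difference of Gapdh and beta-actin control probe sets, which rises as RNA degrades, was on average 0.566 in week 8 controls, 0.291 in week 16 controls and 0.406 in week 24 controls. The anti-CD40L groups averaged 0.369, 0.260 and 0.200 at the same ages. In control week 24 replicate 1 it was 0.61, against 0.287 to 0.389 in the other controls of that week, and that array stood apart in several results below. In whole gland, fewer cells of a type and less RNA per cell cannot be told apart.

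BMAL1 and CLOCK bind the E-box, CACGTG, and the factors encoded by Dbp, Tef and Hlf bind the D-box, TTATGTAA or TTACGTAA. REV-ERB and ROR receptors bind TAGGTCA preceded by AAN. These letters were looked for on both strands in windows of 300 bases, from 250 before to 50 after the start of a gene, in the RefSeq table of build GRCm38.p6. An E-box occurred in 7.15% of the 32851 windows of all genes, a D-box of either spelling in 1.06% and the receptor element in 0.219%. Windows were given for 9 of the 10 genes, and Per2 is named only. The stretches that hold a match are shown because they hold the letters through which clock proteins are known to act on each other's genes, although binding was not measured here. The match is in capitals, 5′ to 3′ on the strand of the gene. They lie at chr3:95882259-95882358 (minus strand, Ciart, upstream), chr15:81802523-81802572 (plus strand, Tef, upstream), chr11:69098759-69098808 (plus strand, Per1, before a start that lies inside the annotated gene), chr4:151044806-151044880 (minus strand, Per3, upstream) and chr7:113207528-113207557 (plus strand, Arntl, just after a start inside the annotated gene).
Ciart: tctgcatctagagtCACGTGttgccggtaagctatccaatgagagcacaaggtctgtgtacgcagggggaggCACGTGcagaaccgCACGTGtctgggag
Tef: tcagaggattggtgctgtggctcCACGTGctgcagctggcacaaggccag
Per1: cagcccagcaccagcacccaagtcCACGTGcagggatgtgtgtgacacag
Per3: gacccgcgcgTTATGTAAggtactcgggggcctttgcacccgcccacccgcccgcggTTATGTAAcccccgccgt
Arntl: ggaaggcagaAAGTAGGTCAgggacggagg

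Ciart held 3 E-boxes within its window, a number reached or passed by 29 windows in the table (0.0883%). Per3 held 2 D-boxes, a number reached or passed by 8 windows (0.0244%). Tef had an E-box before each of its annotated starts, and the one shown precedes the first. Hlf had no E-box or D-box but had a cAMP element (TGACGTCA, in 1.79% of windows). Dbp, Nr1d1, Nr1d2 and Usp2 had none of these letters in their windows. Of the activator and opposite-phase genes, Arntl held the full receptor element, and Cry1 held an E-box.

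At week 16, 4 of the 10 members were lower in the anti-CD40L glands than in the controls. These were Dbp, Tef, Nr1d2 and Per3, called at an adjusted p under 0.05 (limma, Benjamini-Hochberg over all genes tested), and 0 were higher. Among all genes tested 0.577% were called lower and 1.31% higher in this comparison. All 10 differences lay below 0, with a median of -0.78 on the log2 scale against 0.02 for all genes tested. All treated arrays lay below all control arrays for 5 members, Dbp, Tef, Hlf, Nr1d2 and Usp2, where 3.02% of all genes did so.

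Dbp (Entrez 13170, chr7:45705100-45710203) encodes a PAR bZIP activator whose RNA swings widely over the day in many tissues. Its levels at week 16 were 11.25, 11.04, 10.60, 9.94 and 9.38 in control arrays and 7.21, 9.34, 8.44, 5.96 and 6.16 in treated arrays. The highest treated array lay just under the lowest control, and the treated arrays were spread over more than 3 log2 units. The difference was -3.02 ± 0.61 (SE, n = 5 per group), 8.12-fold lower, with an adjusted p of 0.00772 in limma. A second Dbp probe set gave the same -3.02.

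Tef (Entrez 21685, chr15:81802673-81826863) encodes a PAR bZIP factor closely related to DBP. Its levels at week 16 were 10.42, 10.45, 10.01, 9.59 and 9.42 in controls and 8.80, 9.33, 9.0, 8.63 and 8.56 after anti-CD40L. The groups did not overlap, and replicates 4 and 5 were the low end of the controls, as for Dbp. The difference was -1.11 ± 0.22 (adjusted p = 0.00768, limma). Its other probe sets gave -0.56 and -0.40.

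Hlf (Entrez 217082, chr11:90336535-90390917), the last of these bZIP genes, varied little. It measured 6.29, 6.71, 6.28, 6.24 and 6.34 in controls at week 16 and 6.15, 6.22, 6.09, 6.07 and 5.73 in treated arrays. The groups were only just separate, and the difference of -0.32 ± 0.12 did not pass (adjusted p = 0.162, limma).

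The REV-ERB receptors repress Arntl and thereby close a second loop of the clock. Nr1d2 (Entrez 353187, chr14:18204056-18239106) measured 11.29, 11.28, 11.02, 10.89 and 11.00 in controls at week 16 and 10.36, 10.70, 10.36, 9.88 and 9.84 after anti-CD40L. Every treated array was below every control, and the difference of -0.87 ± 0.14 had the lowest adjusted p of the members (0.00109, limma). A second Nr1d2 probe set gave -0.98 ± 0.20 (adjusted p = 0.00919 in a limma fit of all probe sets).

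Nr1d1 (Entrez 217166, chr11:98767932-98775377) measured 8.30, 8.23, 8.39, 8.11 and 8.17 in the same controls and 7.52, 8.29, 7.88, 7.29 and 7.14 in treated arrays. The controls were within 0.3 of each other, and treated replicate 2 lay among them. The difference was -0.61 ± 0.20 (adjusted p = 0.106, limma).

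The period proteins bind CLOCK and BMAL1 and inhibit them. Per3 (Entrez 18628, chr4:150997018-151044707) measured 8.20, 8.08, 7.22, 6.86 and 6.69 in controls and 6.09, 6.72, 6.44, 6.13 and 6.03 in treated arrays at week 16. Treated replicate 2 overlapped the lowest control. The difference was -1.13 ± 0.30 (adjusted p = 0.0476, limma). This call was lost without 8 of the 10 arrays in turn, at most to 0.161 without control replicate 1, but 3 other Per3 probe sets gave -1.01, -0.92 and -0.82 with adjusted p of 0.0128, 0.00968 and 0.00465 in the fit of all probe sets. Another gave -0.57 (adjusted p = 0.192), and the last, which did not pass the filter, gave -0.18.

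Per2 (Entrez 18627, chr1:91415977-91459351) was near the lower end of the tested genes. Its chosen probe set measured 5.97, 6.50, 5.77, 5.18 and 5.42 in controls and 5.57, 5.34, 5.10, 5.59 and 5.06 in treated arrays at week 16, a difference of -0.43 ± 0.17 (adjusted p = 0.216, limma). A second Per2 probe set of lower mean level ranged from 5.37 to 7.20 in these controls and from 4.29 to 5.55 in treated arrays, a difference of -1.39 ± 0.30 (adjusted p = 0.0132, fit of all probe sets). The remaining probe set gave -0.07 ± 0.12. The probe sets of Per2 therefore disagreed in size and in call at week 16.

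Per1 (Entrez 18626, chr11:69095108-69109965), which is also induced directly by glucocorticoids and by light or cAMP signals, was the member with the smallest week 16 difference. It measured 7.86, 8.37, 7.77, 6.68 and 8.62 in controls and 7.21, 7.35, 8.02, 8.02 and 7.51 in treated arrays. The groups overlapped widely (-0.24 ± 0.32, adjusted p = 0.822, limma).

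Ciart (Entrez 229599, chr3:95878500-95882257) encodes a repressor that binds BMAL1. At week 16 it measured 6.73, 6.85, 6.66, 5.91 and 5.89 in controls and 5.75, 5.94, 6.02, 5.41 and 5.51 in treated arrays. Control replicates 4 and 5 lay within the treated range (-0.68 ± 0.24, adjusted p = 0.143, limma).

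Usp2 (Entrez 53376, chr9:44067021-44095627) encodes a deubiquitinase under strong clock control. It measured 10.07, 10.07, 9.46, 8.80 and 8.99 in controls and 8.19, 8.42, 8.36, 8.42 and 8.27 in treated arrays at week 16. The groups did not overlap at this age, but -1.15 ± 0.54 did not pass in the fit of all arrays (adjusted p = 0.322, limma). That SE rests on the spread in all 6 groups, an SD of 0.93 that was 0.52 without control week 24 replicate 1. With only the 10 arrays of week 16 fitted, the SE of Usp2 was 0.23 and the adjusted p 0.0215. The genes called lower over the whole array went from 75 to 313 in that fit. A second Usp2 probe set gave -0.79.

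**Figure D1:**
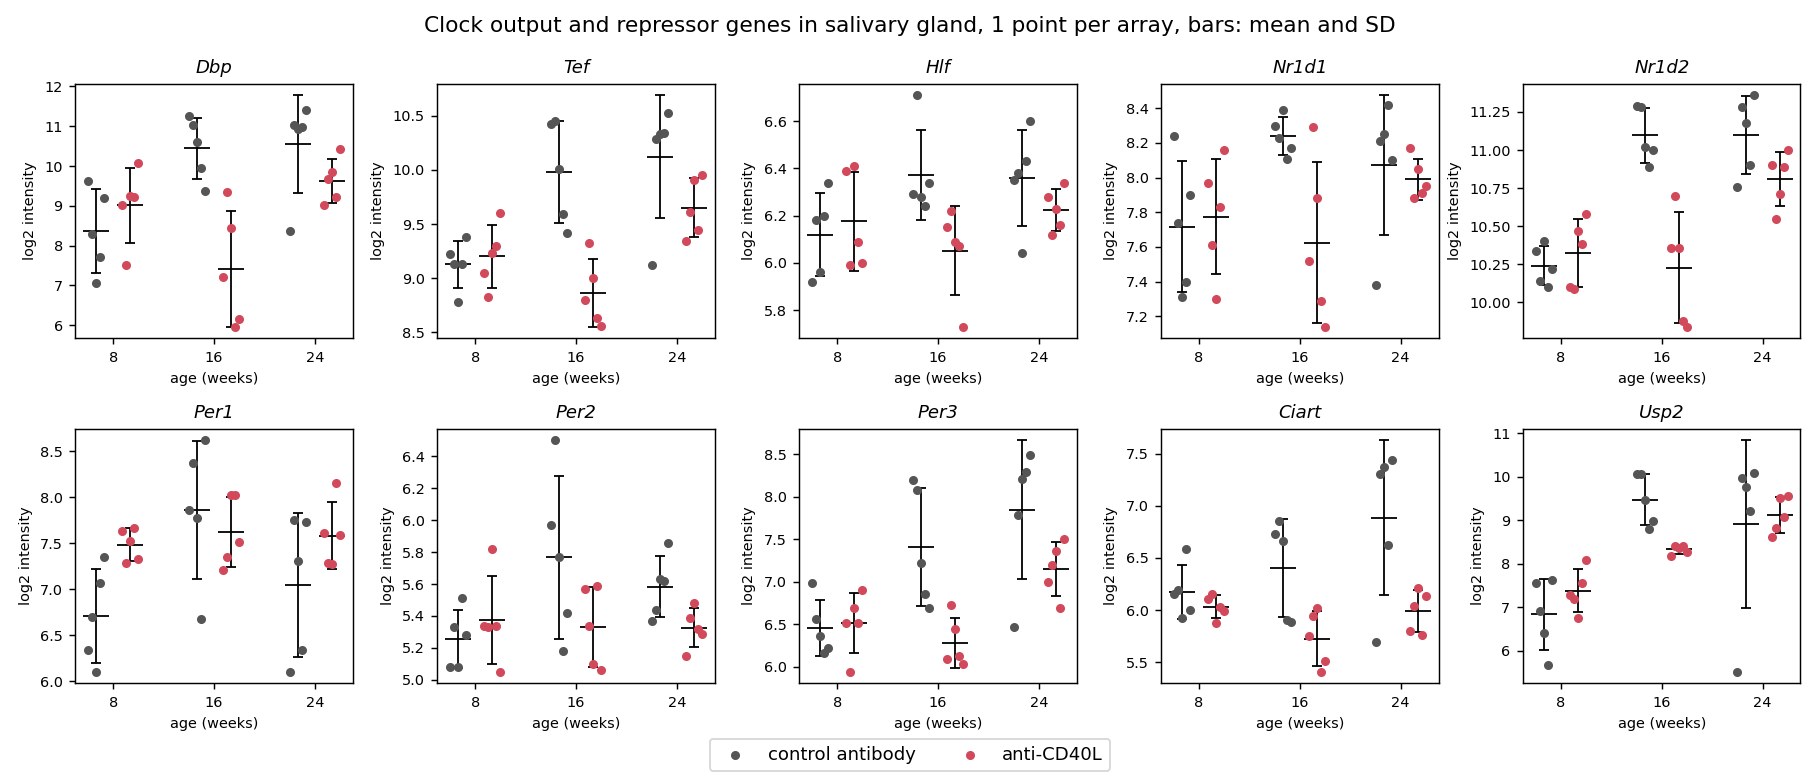
Log2 intensity of each of the 10 members (1 panel a gene) against age in weeks, with control antibody in grey and anti-CD40L in red. Each point is 1 array, and bars give the mean and SD of 5 arrays. At week 16 the red points lie below the grey ones without overlap for Dbp, Tef, Hlf, Nr1d2 and Usp2, and at week 24 a single grey point lies far below its group for Dbp, Tef and Usp2.

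Over all probe sets of the members, 23 of 23 lay below 0 at week 16, and 11 of the 21 that passed the filter were called lower, where 0.486% of the 21819 probe sets tested were. Probe sets of 1 gene share its RNA and are not independent. Members called lower at this age numbered 3 with no filter on low values, where 60 genes in all were called lower. They numbered 9 with array weights (all except Per1), a setting in which the genes called lower over the whole array also went from 75 to 539. Without the 5 arrays of lowest correlation, an alternative chosen after the data were seen, 7 members and 208 genes in all were called lower.

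The activators and opposite-phase genes went the other way at week 16. All 6 lay above 0, with a median of 0.47, and Arntl was the one called. Arntl (Entrez 11865, chr7:113178471-113314126) measured 5.24, 5.5, 5.41, 5.96 and 6.33 in controls and 8.08, 6.83, 7.42, 8.33 and 8.17 in treated arrays. There was no overlap (6.03% of all genes had all treated arrays above all controls), and the difference was 2.08 ± 0.31 (adjusted p = 0.000401, limma), while a second Arntl probe set gave 0.06. Nfil3, a repressor that competes with DBP for the D-box, gave 0.96 ± 0.28 (adjusted p = 0.0755), and Npas2, a CLOCK paralog, gave 0.43 ± 0.14 (adjusted p = 0.126; another probe set 1.67 ± 0.24).

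**Figure D2:**
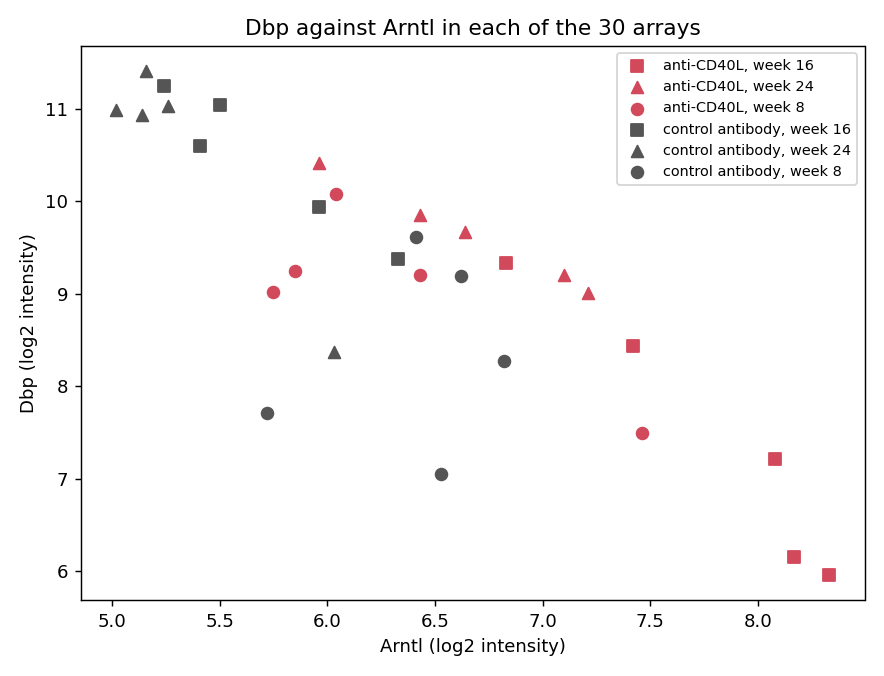
Dbp (vertical) against Arntl (horizontal), both in log2 intensity, with 1 point for each of the 30 arrays, colour for the antibody and shape for the week. The week 16 anti-CD40L arrays reach the lower right corner, and most week 16 control arrays and all but 1 of the week 24 control arrays lie at the upper left. Control week 16 replicate 5 lies nearer the middle, with Dbp at 9.38 and Arntl at 6.33, among arrays of other groups.

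The difference Dbp minus Arntl within an array orders the arrays by this pattern. It is used only to compare arrays, since the probe sets of both genes have their own scale. Its median was 5.19 (range 3.05 to 6.01) in week 16 controls and -0.87 (range -2.37 to 2.50) in week 16 treated arrays, which did not overlap. Dbp and Arntl had the largest week 16 differences of their lists. This separation follows from that of each gene at this age and adds no result to them. At week 8 the median of Dbp minus Arntl was 1.98 (0.52 to 3.20) in controls and 3.27 (0.05 to 4.04) after anti-CD40L. At week 24 it was 5.80 (2.34 to 6.25) and 3.03 (1.80 to 4.46). The groups overlapped at both of these ages.

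At week 8, 0 of the 10 members were called, where 0.0692% of all genes were called in either direction. Of the members 9 lay above 0, with a median of 0.08 against 0.01 for all genes tested. Per1 had an unadjusted p under 0.05 in limma (0.78 ± 0.32, adjusted p = 0.265), and 2019 genes in all did. It measured 6.34, 6.70, 6.10, 7.07 and 7.35 in controls and 7.63, 7.28, 7.52, 7.67 and 7.33 after anti-CD40L, with 1 control inside the treated range. Dbp measured 9.62, 8.28, 7.05, 7.71 and 9.19 in controls and 9.02, 7.50, 9.25, 9.21 and 10.08 in treated arrays. These ranges overlapped through most of their length (0.64 ± 0.61, adjusted p = 0.628).

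At week 24, Ciart was the 1 of 10 members called lower, where 3.49% of all genes were. It measured 5.70, 7.30, 7.37, 6.62 and 7.44 in controls and 5.80, 6.04, 6.21, 5.76 and 6.14 in treated arrays. Control replicate 1 lay below every treated array, and the other 4 controls lay above every one. The difference was -0.89 ± 0.24 (adjusted p = 0.0223, limma), and the call was lost without 4 of the 10 arrays in turn, at most to 0.0673 without control replicate 3.

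Of the other members 7 lay below 0 at week 24 and 2, Per1 and Usp2, above it. The median over the members was -0.27 against 0.03 for all genes tested. Dbp measured 8.37, 11.03, 10.94, 10.99 and 11.41 in controls and 9.01, 9.67, 9.85, 9.21 and 10.42 after anti-CD40L (-0.92 ± 0.61, adjusted p = 0.319). Per3 measured 6.47, 7.78, 8.21, 8.29 and 8.49 in controls and 7.0, 7.20, 7.36, 6.69 and 7.50 in treated arrays (-0.70 ± 0.30, adjusted p = 0.123). In the fit of all probe sets, 2 other Per3 probe sets were called lower at this age, at -0.76 ± 0.15 (adjusted p = 0.00598) and -0.75 ± 0.19 (adjusted p = 0.0176), where 2.47% of all probe sets were. A further pair gave -0.43 each (adjusted p of 0.177 and 0.18), and the one that did not pass the filter gave -0.12. In both Dbp and the chosen probe set of Per3, 4 controls lay above every treated array and control replicate 1 below every one.

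Control replicate 1 bore on all of these week 24 values. Without it 2 members were called lower, Ciart (-1.19 ± 0.19, adjusted p = 0.00225) and Per3 (-1.04 ± 0.26, adjusted p = 0.0331). Dbp then gave -1.46 and Tef -0.72 (adjusted p = 0.0516). With 1 array left out at a time, the genes called in all at this age ranged from 237 to 2140, against 1229 with all arrays. Usp2 measured 5.52 in control replicate 1 and 9.98, 9.76, 9.22 and 10.08 in the other controls. Its difference went from 0.20 to -0.64 (adjusted p = 0.293) without that replicate. With the 3′ minus 5′ difference as a covariate, or with only the 10 arrays of this age fitted, 0 members were called at week 24, and the genes called in all went from 1229 to 23 and 129.

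Among the activator and opposite-phase genes at week 24, Arntl was 1.34 ± 0.31 higher (adjusted p = 0.0115) and Nfil3 1.26 ± 0.28 (adjusted p = 0.00989). Clock was 0.76 ± 0.24 higher (adjusted p = 0.0435, all in limma), so 3 of 6 were called higher, beside 5.96% of all genes. The alternative fits were examined for the members only, so whether these 3 calls hold in them was not tested. Arntl measured 6.03, 5.26, 5.14, 5.02 and 5.16 in controls and 7.21, 6.64, 6.43, 7.10 and 5.96 in treated arrays. Only control replicate 1 reached into the treated range. In the fit of all probe sets a second Arntl probe set gave -0.14 ± 0.14 (adjusted p = 0.541). Other tested Clock probe sets gave 0.34 and 0.55 (adjusted p of 0.0663 and 0.115). A second Npas2 probe set gave 0.98 ± 0.24 (adjusted p = 0.0159), where the chosen one gave 0.02.

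**Figure D3:**
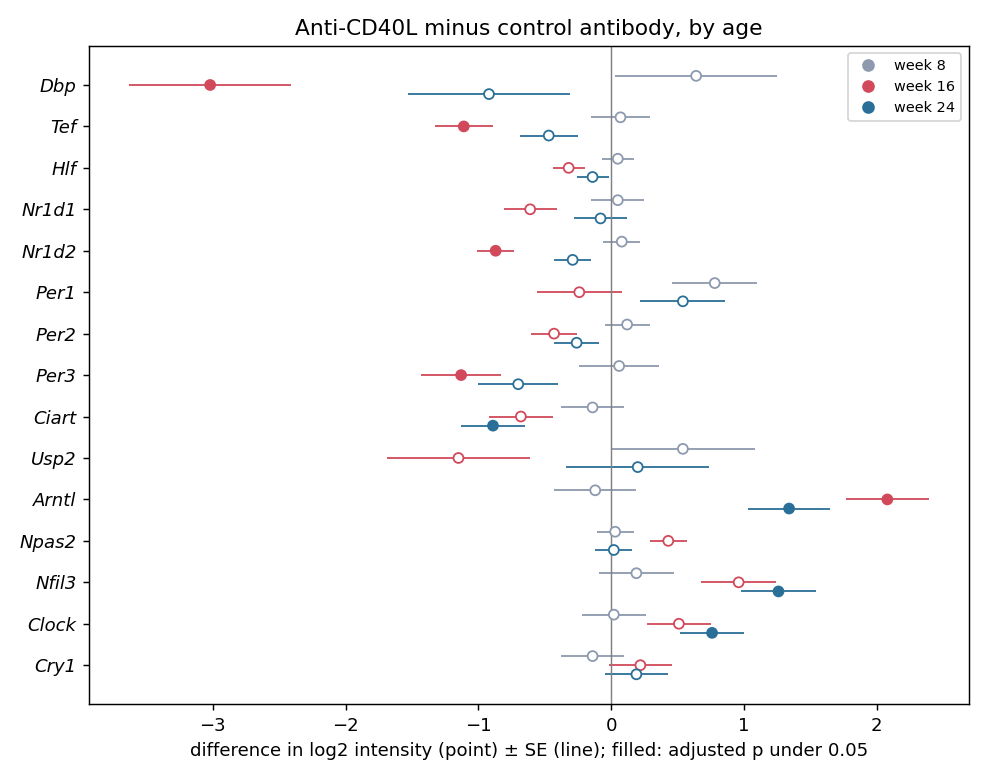
Difference between anti-CD40L and control in log2 intensity (horizontal) for the 10 members and 5 activator or opposite-phase genes, with 1 point per week and a line for the SE; filled points have an adjusted p under 0.05. The week 16 points of all members lie left of 0 and those of the genes from Arntl to Cry1 right of 0, and the week 8 points lie near 0 except for Dbp, Per1 and Usp2.

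Whether the treatment difference itself changed with age was tested in the same model. From week 8 to week 16 it became more negative in all 10 members, with a median of -0.98 against 0 for all genes tested. The change was called in Nr1d2 (-0.95 ± 0.20, adjusted p = 0.0491, limma), 1 of 10, where 0.0231% of all genes were called in that direction. That call was lost without 17 of the 20 arrays in turn, at most to 0.117 without anti-CD40L week 16 replicate 5. Dbp had a larger change with a larger error (-3.66 ± 0.87, adjusted p = 0.0619), and Tef gave -1.19 ± 0.32 (adjusted p = 0.0897). Arntl changed by 2.20 ± 0.44 (adjusted p = 0.043).

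From week 16 to week 24 the treatment difference had a positive change in 9 of 10 members, all except Ciart, but 0 were called, where 1.16% of all genes were (limma; 2 members had an unadjusted p under 0.05). Dbp changed by 2.11 ± 0.87 (adjusted p = 0.201) and Nr1d2 by 0.58 ± 0.20 (adjusted p = 0.139). From week 8 to week 24, 0 members and 0.00769% of all genes were called (1 member with an unadjusted p under 0.05). These comparisons share arrays with each other and with the treatment comparisons.

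In the control glands alone the members were higher at week 16 than at week 8. The test called 8 of 10 higher, all except Hlf and Ciart, but 28.4% of all genes were called higher in this comparison and 46.5% in either direction. The median over the members was 0.85 against 0.06. The groups did not overlap for Tef, Nr1d2 and Usp2, 3 of 10 members, beside 16.4% of all genes. Usp2 had the largest difference, from 7.55, 6.91, 6.42, 5.67 and 7.64 at week 8 to the week 16 values above (2.64 ± 0.54, adjusted p = 0.000537). Dbp rose by 2.07 ± 0.61 (adjusted p = 0.00789), Per1 by 1.15 ± 0.32 (adjusted p = 0.0051) and Nr1d2 by 0.85 ± 0.14 (adjusted p = 0.000111). The smallest call, Nr1d1 (0.52 ± 0.20, adjusted p = 0.0339), was lost without 5 of the 10 arrays in turn, at most to 0.103 without week 8 replicate 3. Per2 lost its call without week 16 replicate 2 (0.0894), and Per3 without week 16 replicate 1 (0.0505). Clock changed by 0.88 ± 0.24 (adjusted p = 0.00463) and Cry1 by 0.81 ± 0.24 (adjusted p = 0.00853, both in limma). These were the 2 called of the 6 activator and opposite-phase genes, both higher like the members. Other tested Clock probe sets gave -0.12 and 0.40. Arntl was lower without a call (-0.74 ± 0.31, adjusted p = 0.0544, limma).

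RNA quality moved with this comparison, since the 3′ minus 5′ difference was 0.566 ± 0.198 (SD, n = 5) in week 8 controls and 0.291 ± 0.066 in week 16 controls. With it as a covariate the members called fell to 2, Nr1d2 (0.76, adjusted p = 0.0223) and Per2 (0.76, adjusted p = 0.0402). The genes called over the whole array went from 6046 to 620 in that fit, and those called higher from 3689 to 283. Dbp then gave 1.01 (adjusted p = 0.423), Usp2 1.13 (adjusted p = 0.213) and Nr1d1 -0.01 in place of 0.52. Of the temperature-responsive genes 7 of 8 tested were called higher and 1 lower between these ages. Of the glucocorticoid-induced genes 7 of 12 were called higher, among them Per1, which is itself a member. Among cell markers 4 of 5 for fibroblasts, 3 of 4 for plasma cells, 2 of 4 for macrophages, 2 of 4 for endothelium and 2 of 3 for acini were called higher, and 0 for B or T cells. The part of these lists in the members' values was not tested.

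From week 8 to week 24 the controls showed 6 of 10 members higher (Dbp, Tef, Nr1d2, Per3, Ciart and Usp2), where 8.49% of all genes were called higher. The median was 0.78 against 0.05. Per3 went from 6.98, 6.56, 6.36, 6.16 and 6.22 at week 8 to the week 24 values above (1.39 ± 0.30, adjusted p = 0.00469), with control replicate 1 of week 24 inside the week 8 range. Nr1d2 was the 1 member whose week 24 controls all lay above those of week 8, which 2.22% of all genes did. Dbp rose by 2.18 ± 0.61 (adjusted p = 0.0207) and Tef by 0.99 ± 0.22 (adjusted p = 0.00618). Without that replicate 7 members were called, Nr1d1 being added (0.53, adjusted p = 0.0436), and Usp2 rose by 2.92 instead of 2.08. With 1 array left out at a time, the genes called in all ranged from 721 to 3228, against 1624 with all arrays. The calls of Ciart, Dbp and Usp2 were lost without 6, 4 and 2 of the 10 arrays in turn, at most to 0.147 (without week 24 replicate 2), 0.0652 and 0.057 (both without week 8 replicate 4). When only the 10 arrays compared were fitted, Nr1d2 alone was called and the genes called in all went from 1624 to 41. With the 3′ minus 5′ covariate Tef, Nr1d2 and Per3 were called, among 715 genes in all. In the fit of all arrays, Arntl changed by -1.10 ± 0.31 (adjusted p = 0.0222) and Nfil3 by -1.37 ± 0.28 (adjusted p = 0.00347, both in limma). These were the 2 called of the 6 activator and opposite-phase genes, where 521 genes in all were called lower.

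Immune cell markers were higher in the same comparison. The test called 4 of 4 tested B cell markers higher, 4 of 4 for plasma cells, 3 of 3 for all leukocytes and 3 of 5 for T cells. B cell markers ranged from 4.84 to 5.99 in week 8 controls and from 6.10 to 8.61 in week 24 controls, without overlap. Plasma cell markers ranged from 6.10 to 7.41 and from 8.53 to 9.07. The part of these cells in the members' values was not tested.

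Between weeks 16 and 24 of the controls 0 members were called, where 12.4% of all genes were (limma; Per1 alone had an unadjusted p under 0.05, at -0.81 ± 0.32). The median over the members was 0, and Nr1d2 averaged 11.10 and 11.09 at these ages. Nfil3 changed by -1.44 ± 0.28 (adjusted p = 0.0033) and Clock by -0.89 ± 0.24 (adjusted p = 0.0186, both in limma). These were the 2 called of the 6 activator and opposite-phase genes, where 960 genes in all were called lower. Without control week 24 replicate 1, Ciart was called higher (0.77, adjusted p = 0.0255). With 1 array left out at a time, 566 to 2229 genes in all were called, against 1610 with all arrays. Over these weeks 4 of 4 B cell, 3 of 4 plasma cell and 3 of 5 T cell markers were called higher, and 2 of 5 fibroblast markers lower.

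In the anti-CD40L glands, from week 8 to week 16, Dbp was 1.59 ± 0.61 lower (adjusted p = 0.0429, limma), the 1 member called, where 12.5% of all genes were called lower. That call was lost without 7 of the 10 arrays in turn, at most to 0.136 without anti-CD40L week 16 replicate 4, and under 6 of the 12 other settings. In 2 of these, only the arrays compared and array weights, Usp2 was called higher instead (0.95, adjusted p = 0.00521, and 0.85, adjusted p = 0.0415). The members' median was -0.14 against 0.09. Usp2 alone had all week 16 treated arrays above all those of week 8, which held 7.28, 7.20, 6.76, 7.56 and 8.10 (0.95 ± 0.54, adjusted p = 0.162), a separation shown by 19.1% of all genes. Arntl rose by 1.46 ± 0.31 (adjusted p = 0.00135), Clock by 1.37 ± 0.24 (adjusted p = 0.000263), Cry1 by 1.16 ± 0.24 (adjusted p = 0.0011) and Nfil3 by 0.84 ± 0.28 (adjusted p = 0.0228) over the same weeks, in which 24.1% of all genes were called higher. Of the other lists, 4 of 4 markers of dividing cells, 4 of 8 temperature-responsive and 4 of 12 glucocorticoid-induced genes were called higher, and their part was not tested.

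From week 16 to week 24 after anti-CD40L, 3 of 10 members were called higher, beside 2.50% of all genes: Dbp (2.21 ± 0.61, adjusted p = 0.0315), Tef (0.79 ± 0.22, adjusted p = 0.0368) and Nr1d2 (0.58 ± 0.14, adjusted p = 0.0168). Tef reached 9.34, 9.61, 9.91, 9.45 and 9.95 at week 24, and each of these lay above the week 16 treated arrays, as the Usp2 values did (2 members, beside 5.15% of all genes). The calls of Dbp and Tef were each lost without 6 of the 10 arrays in turn, at most to 0.115 without anti-CD40L week 16 replicate 4 and to 0.11 without replicate 5. That of Nr1d2 was lost without 2 arrays, at most to 0.0725 without replicate 5. Without replicate 5 of week 16, 0 members were called. With 1 array left out at a time, 339 to 641 genes in all were called, against 699 with all arrays. Arntl fell by 1.10 ± 0.31 (adjusted p = 0.0363) and Nfil3 by 1.15 ± 0.28 (adjusted p = 0.0162).

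From week 8 to week 24 after anti-CD40L, Nr1d2 (0.48 ± 0.14, adjusted p = 0.0191) and Usp2 (1.74 ± 0.54, adjusted p = 0.0234) were called higher, 2 of 10, where 16.5% of all genes were. The median was 0.34 against 0.09. Usp2 did not overlap between these ages, like 12.4% of all genes. Both calls were lost with the 3′ minus 5′ difference or with Amy1 as a covariate. Nr1d2 also lost its call without week 8 replicate 1 (0.0663), and Usp2 without 3 of the 10 arrays, at most to 0.07 without week 8 replicate 3.

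**Figure D4:**
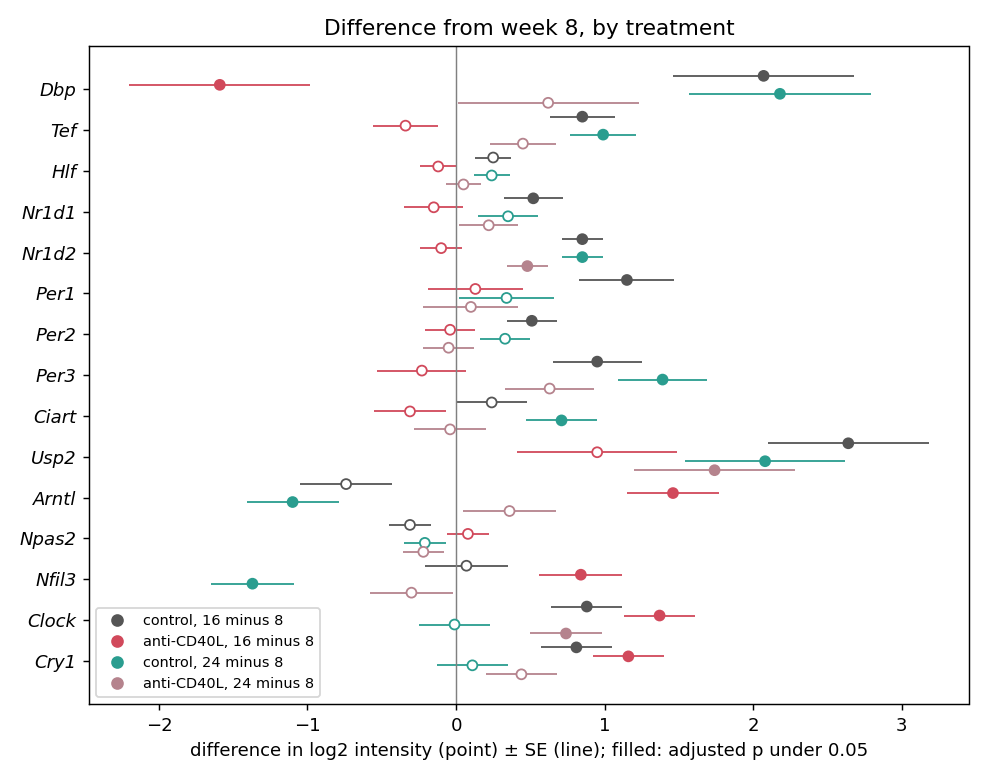
Difference from week 8 in log2 intensity (horizontal) for the same 15 genes, at week 16 and week 24 within each antibody, with a line for the SE; filled points have an adjusted p under 0.05. For Dbp the control points lie near 2 while the anti-CD40L week 16 point lies at -1.59, and for Arntl the order is turned, with the anti-CD40L week 16 point at 1.46.

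Some members differed more between mice of the same group than most genes. The SD within groups was 1.04 for Dbp (percentile 99.7 of all genes tested), 0.93 for Usp2 (99.6), 0.54 for Per1 (97.5) and 0.51 for Per3 (96.9), against a median of 0.22. Without control week 24 replicate 1 it was 0.52 for Usp2 (97.5), 0.94 for Dbp (99.6), 0.50 for Per1 (97.2) and 0.41 for Per3 (94.2), against a median of 0.21. Nr1d2 (0.23) and Hlf (0.18) were close to that median. The level of these genes did not set them apart to the same degree, since Dbp lay at percentile 78.9 of mean level and Usp2 at 65.

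The members moved together from array to array. Over the 30 arrays, which share 6 group means, all 45 pairs of members had a correlation above 0, with a median r of 0.60. After the group means were subtracted, 44 of 45 remained above 0, with a median of 0.47, and the exception was Nr1d1 with Per2 at -0.10. Each member was also set against the mean of the other 9. Tef followed them most closely (r = 0.94, and 0.92 within groups), then Per3 (0.89 and 0.82), Dbp (0.88 and 0.82) and Nr1d2 (0.86 and 0.65). Per1 followed them least (0.30 and 0.41). Arntl ran opposite to the members (-0.72 and -0.64), followed by Npas2 (-0.58 and -0.31) and Nfil3 (-0.53 and -0.30). The others of that list did so little or not at all: Clock (-0.11 and -0.23), Arntl2 (-0.11 and -0.13) and Cry1 (0.15 and 0.22). These are descriptions over arrays of 1 data set.

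The genes whose pattern over the 30 arrays was most like the mean of the members were Bhlhe40 (r = 0.79), Slc46a3 (0.78), St6galnac1 (0.77), Rnf145 (0.77) and Herpud1 (0.76), with a median r of 0.06 over all genes tested. Bhlhe40 (DEC1) is itself a repressor of the CLOCK and BMAL1 complex. The most opposite were Fam241a (-0.87), Slc66a2 (-0.81), Pgp, Ttpa and 9530002B09Rik (-0.80 each). Within groups the most alike were Nos1 and Herpud1 (0.79 each), Mid1ip1 (0.78), Cpeb3 and Rxrg (0.76 each), and Ttpa was the most opposite (-0.82).

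**Figure D5:**
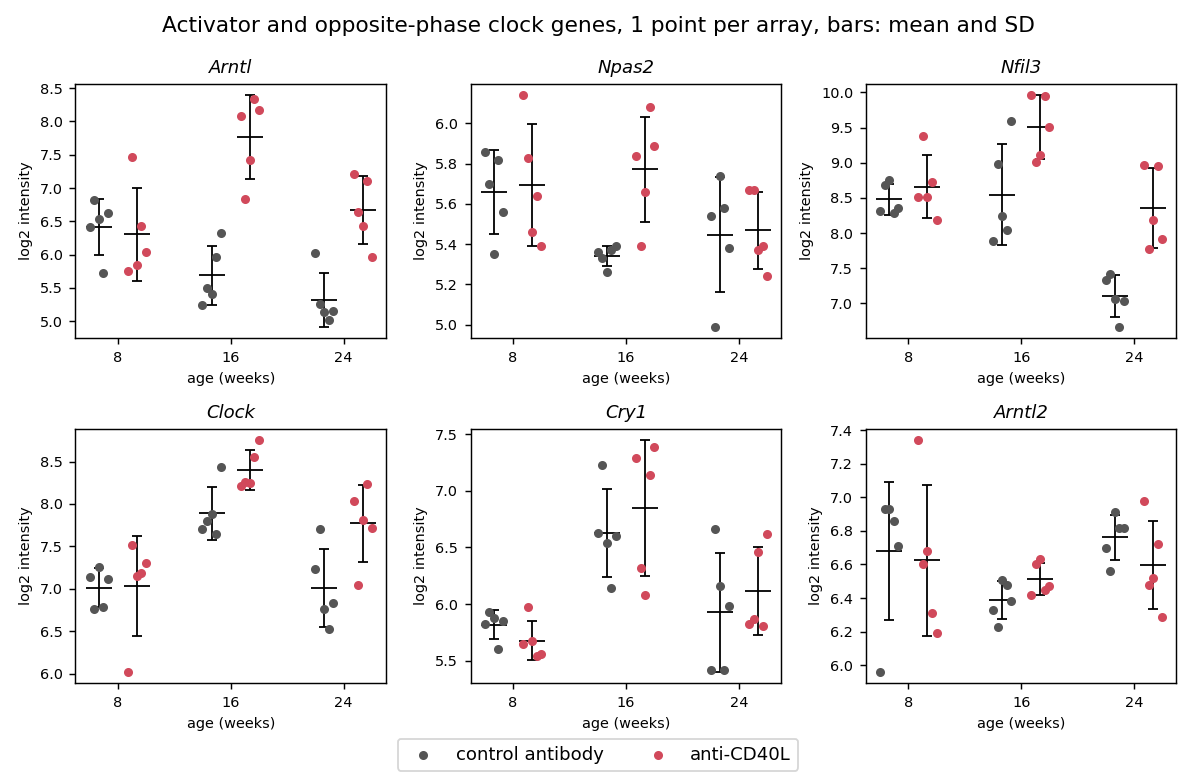
Log2 intensity of the 6 activator and opposite-phase genes (1 panel a gene) against age in weeks, with control antibody in grey, anti-CD40L in red, 1 point per array, and the mean and SD of 5 arrays. For Arntl the week 16 anti-CD40L arrays, from 6.83 to 8.33, lie above all controls of that week, from 5.24 to 6.33.

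Other genes of the clock moved less at week 16. Of 14 further clock genes 9 were tested, and 0 were called in limma (median -0.07). Bhlhe40 averaged 10.25 (SD 0.21) in controls and 9.55 (SD 0.12) after anti-CD40L, with all treated arrays lower (-0.71 ± 0.23, adjusted p = 0.104). Cry2, the partner of the period proteins, gave -0.20 ± 0.14 (adjusted p = 0.581) and the receptor Rora -0.11 ± 0.29 (adjusted p = 0.923). Of 17 tested genes that are clock-controlled in many tissues, 3 rose and 0 fell (median -0.01): Lonrf3 (0.83 ± 0.18, adjusted p = 0.0184), Leo1 (0.77 ± 0.20, adjusted p = 0.0449) and the cell cycle inhibitor Cdkn1a (0.49 ± 0.11, adjusted p = 0.0199). Wee1, a cell cycle kinase driven by the clock, gave -0.33 ± 0.15 (adjusted p = 0.287).

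Genes that respond to stress hormone, temperature or handling were examined because Per1 and Per2 respond to such signals. At week 16, Cdkn1a was the 1 of 12 glucocorticoid-induced genes that rose, with 0 lower (list median -0.03). The list includes Per1, itself a member. None of the 8 tested temperature-responsive genes (median -0.01) and none of the 6 tested immediate early genes (median 0.16) was called at this age in limma. At week 24, Klf9 (0.54 ± 0.17, adjusted p = 0.048) and Errfi1 (0.51 ± 0.12, adjusted p = 0.0133) of the first list rose, and so did the heat shock genes Hspa1a (0.81 ± 0.20, adjusted p = 0.0153) and Hspa1b (0.74 ± 0.12, adjusted p = 0.00107), which are near-identical and may share signal. Their part in the members' values was not tested.

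Some cell markers also differed at week 16. Plasma cell markers (4 of 4 tested) ranged from 7.31 to 8.47 in controls and from 5.96 to 6.42 after anti-CD40L, and macrophage markers (4 of 4) from 8.14 to 8.90 and from 7.83 to 8.11. Fibroblast markers (5 of 5) ranged from 9.78 to 9.98 and from 8.68 to 9.75. Each of these differences had an exact permutation p of 0.00794, the smallest that 5 against 5 arrays allow, and an adjusted p of 0.0346 over 48 such tests. Markers of dividing cells (4 of 5 tested) ranged from 5.60 to 6.43 in controls and from 5.74 to 9.86 in treated arrays (exact permutation p = 0.0317, adjusted p = 0.0953). Plasma cell markers were already lower after anti-CD40L at week 8, where 0 members were called. They ranged there from 6.10 to 7.41 in controls and from 5.65 to 6.07 in treated arrays (exact permutation p = 0.00794, adjusted p = 0.0346). At week 24, where Ciart was lower, B cell markers (4 of 5 tested) ranged from 6.10 to 8.61 in controls and from 4.97 to 5.38 after anti-CD40L. T cell markers (5 of 5) ranged from 6.08 to 7.90 and from 5.14 to 5.92, and plasma cell markers (4 of 4) from 8.53 to 9.07 and from 6.59 to 7.79. Fibroblast markers (5 of 5) were higher after anti-CD40L, at 9.85 to 10.48 against 9.24 to 9.76, and so were acinar markers (3 of 3), at 11.98 to 12.25 against 11.33 to 11.96. The 3′ minus 5′ difference was lower after anti-CD40L (by -0.205 as treated minus control). Each of these 6 measures had the same exact permutation p of 0.00794 (adjusted p = 0.0346). Apart from the fit with that difference as a covariate, the part of these measures in the members' values was not tested.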

How the data were processed

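The deposited table holds log2 intensities of 45101 probe sets in 30 arrays, 64 of them array controls. The scale was read from the range of the deposited log2 values, 2.757 to 14.457, and from array medians between 5.487 and 5.537. Limma is the tool in the submitters' processing notes. Background correction, summarisation and normalization are not given in the sources used here, and the values were used as deposited.

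The platform annotation gave 1 gene for 34945 probe sets, several for 932 and none for 9211. For each gene the probe set of highest mean was taken. Using limma 3.58.1 (R 4.3.3), group means of all arrays were estimated in 1 linear model, with 12 contrasts and Benjamini-Hochberg adjustment over the 12998 genes tested. A separate fit covered 21819 probe sets. The model was tested on simulated data. The genes, lists, named genes and tests were chosen with earlier results of these data known; named genes were the members, the fixed lists and the 5 most alike and most opposite genes.

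Replicate numbers did not pair the arrays: of 45 same-numbered pairs over 9 comparisons 9 had correlated deviations above 0.1. The labels call the replicates biological. Marker and quality measures were compared with two-sided exact permutation tests. Alternatives were quantile normalization, median centring, no filter, a filter at percentile 70, the median over probe sets, a fit of only the arrays compared, a variance trend, a replicate block, array weights, covariates for the 3′ minus 5′ difference and for Amy1, leaving out each array, and leaving out 5 arrays of lowest correlation. The number of arrays limits the precision. Promoter windows came from RefSeq on GRCm38.p6.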

Additional observations from a re-analysis of the deposited data

Results flagged for a closer look

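In 3 members, control week 24 replicate 1 stood apart from the other 4 arrays of its group by more than the critical share of the group's range (0.71). Dbp measured 8.37 there against 10.94 to 11.41, Tef 9.12 against 10.29 to 10.53, and Usp2 5.52 against 9.22 to 10.08. The same array had the highest 3′ minus 5′ difference of its group (0.61) and a median correlation with the other arrays of 0.9686. In Hlf, control week 16 replicate 2 measured 6.71 against 6.24 to 6.34 in the rest of its group. Of the 60 groups of values examined 4 held such an array, where chance gives about 1 in 20.

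The treatment difference of Nr1d2 differed between week 8 and week 16 by -0.95 (adjusted p = 0.0491, limma interaction term).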

How the results depend on the processing

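Of 1404 member values recomputed under alternatives other than leaving out 1 array, 45 lost a call, 30 gained one, 51 uncalled ones changed sign and 1 called value reversed: Nr1d1 in controls from week 8 to week 16, at -0.01 (adjusted p = 0.985) with the 3′ minus 5′ covariate. The week 16 treatment calls of Dbp, Tef and Nr1d2 held in all 12 alternatives and without each of the 10 arrays. Week 8 stayed at 0 members called in every alternative, as did the changes of the treatment difference to week 24.

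Members called at week 16 numbered 4; array weights gave 9 and leaving out the 5 arrays of lowest correlation 7. At week 24 the 1 call became 0 with only the arrays compared and with the 3′ minus 5′ covariate. All genes called there went from 1229 to 129 and 23. The stricter filter left 7 members tested at week 24, without Ciart, so its call was not retested. With that filter 0 of the 7 were called, and 1212 genes in all. The 1 call at week 24 became 2 with the median over probe sets and 3 without the 5 arrays, with 1010 and 1472 genes called in all. In controls from week 8 to 16, 8 became 2 with the 3′ minus 5′ covariate, and all genes called went from 6046 to 620. From week 16 to 24, 0 became 1 with array weights or without the 5 arrays (all genes called: 1610 to 2567 and 1798). From week 8 to 24, 6 became 1 with only the arrays compared and 3 with the 3′ minus 5′ covariate. All genes called there went from 1624 to 41 and 715. After anti-CD40L, the 1 call from week 8 to 16 became 0 with no filter, the median over probe sets or without the 5 arrays. All genes called went from 4750 to 4826, 3988 and 2476. With only the arrays compared or array weights 1 remained in number, but it was Usp2 (higher) in place of Dbp. In these settings 5431 and 5310 genes in all were called. The 3 from week 16 to 24 became 5 with only the arrays compared, array weights or without the 5 arrays. All genes called went from 699 to 1570, 2006 and 1512 in these settings. The 2 from week 8 to 24 became 0 with the 3′ minus 5′ or Amy1 covariate and 1 without the 5 arrays. All genes called there went from 3074 to 633, 1412 and 1110. For the change of the treatment difference from week 8 to 16, 1 became 2 with quantile normalization or the Amy1 covariate. All genes called there went from 19 to 57 and 89. The 1 call became 0 with no filter, only the arrays compared, the 3′ minus 5′ covariate or without the 5 arrays. In these settings 16, 39, 0 and 50 genes in all were called. The causes were not tested.

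The replicate numbers did not pair the arrays (correlations from -0.63 to 0.40). With the replicate block, 0 members were called after anti-CD40L from week 8 to 16 and for the change of the treatment difference from week 8 to 16. Per3 at week 16 lost its call, which left 3 members. All genes called in these comparisons went from 4750 to 4631, from 19 to 2 and from 245 to 205.

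Without 1 array at a time the members called ranged from 3 to 5 at week 16 and 0 to 2 at week 24. All genes called ranged from 74 to 220 and from 237 to 2140. In controls the members called ranged from 6 to 9 (week 8 to 16), 0 to 1 (16 to 24) and 3 to 7 (8 to 24). All genes called ranged there from 4444 to 6781, 566 to 2229 and 721 to 3228. After anti-CD40L the members called ranged from 0 to 1, 0 to 3 and 0 to 2, and for the change from week 8 to 16 from 0 to 2. All genes called ranged from 3138 to 5297, 339 to 641 and 1381 to 3793, and for that change from 0 to 52.

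Quantile normalization moved the median of all genes from 0.064 to -0.058 in controls and from 0.086 to -0.048 after anti-CD40L from week 8 to 16, and from 0.094 to -0.018 after anti-CD40L from week 8 to 24. It turned the split of all calls over these comparisons from 3689 higher and 2357 lower to 2621 and 3616 in the first, from 3127 and 1623 to 1714 and 2683 in the second, and from 2148 and 926 to 1234 and 1647 in the last. It also turned the split at week 24 from 775 higher and 454 lower to 633 and 676, in controls from 1103 and 521 to 858 and 978 (week 8 to 24) and from 650 and 960 to 1081 and 878 (16 to 24), and after anti-CD40L from 325 and 374 to 488 and 389 (16 to 24). It moved without turning the split at week 16, from 170 and 75 to 153 and 125, and that of the change from week 8 to 16, from 16 and 3 to 31 and 26. The total of genes called at week 16 was 245, 965 with only the arrays compared, 1557 with array weights and 670 without the 5 arrays.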
